A study of Homo sapiens with 12 samples.

Results

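The CCT chaperonin, also called TRiC, is a cytosolic folding machine built of 2 stacked rings, and each ring holds 1 copy of each of its 8 subunits. The subunit genes are TCP1 (alpha), CCT2 (beta), CCT3 (gamma), CCT4 (delta), CCT5 (epsilon), CCT6A (zeta), CCT7 (eta) and CCT8 (theta). All 8 were taken by gene symbol from the 51112 Ensembl gene identifiers of the deposited table, and none was left out by the filter on low values. Newly made actin and tubulin enter the cavity, often handed over by prefoldin, and are released after ATP hydrolysis closes and reopens the ring's lid. Within a ring the subunits follow a fixed order, namely TCP1, CCT4, CCT2, CCT5, CCT7, CCT8, CCT6A and CCT3, and the complex is generally abundant in proliferating cells.

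The study measured polyadenylated RNA of K-562 cells, an established human line of chronic myeloid leukemia, a disease driven by the BCR-ABL1 fusion kinase. Cells in exponential growth received 5 µM Si-711, which the study names a dual inhibitor of sirtuin 1 and sirtuin 2. The 4 groups were sampled without Si-711 and at 8, 24 and 48 h of exposure, and each has 3 biological replicates, which makes 12 libraries. No vehicle-treated and no later untreated libraries were among the samples, so exposure to Si-711 and time in culture cannot be told apart. The p-values measure the spread between these replicates of 1 cell line. Bulk RNA also cannot separate fewer expressing cells from less RNA per cell.

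Values are counts normalized by the authors, which summed to between 27070528 and 37117837 per library. Between 13755 and 14719 genes reached a value of 10 in a library, and the 8 CCT genes had at least 10327 normalized counts in every library. The labels call the cells lymphoblasts. Erythroid genes marked all 12 libraries, with HBG2 (fetal hemoglobin) at 11741 to 217379 and GATA1 at 5719 to 9722 normalized counts. HBG2 averaged 180820.5 in untreated cells, 17599.1 after 8 h, 25082.9 after 24 h and 50890.1 after 48 h. The transferrin receptor gene TFRC averaged 35358.2, 24237.0, 16257.1 and 13696.6 at these times, TAL1 5338.9, 2554.2, 2373.3 and 809.1, and GATA1 5992.1, 7079.8, 6670.4 and 8566.3. The B-cell gene MS4A1 was at 0 in every library. The T-cell gene CD3D averaged 174.6 in untreated cells and 616.8, 361.4 and 424.6 at 8, 24 and 48 h. The epithelial genes EPCAM and KRT19 were present throughout, at 1928 to 4009 and 3026 to 8244 normalized counts. The part of these markers in the CCT results was not tested.

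The 8 genes lie apart in the genome, on 7 chromosomes, so that no 2 of them share a promoter. In GENCODE release 29 on GRCh38, TCP1 (ENSG00000120438) spans positions 159778498 to 159789749 of chromosome 6 on the minus strand. CCT2 (ENSG00000166226) spans 69585334 to 69601570 of chromosome 12 on the plus strand. CCT8 (ENSG00000156261) spans 29055805 to 29073797 of chromosome 21 on the minus strand, and CCT6A (ENSG00000146731) spans 56051630 to 56063989 of chromosome 7 on the plus strand. The others are CCT3 (ENSG00000163468) on chromosome 1, CCT4 (ENSG00000115484) and CCT7 (ENSG00000135624) on chromosome 2, and CCT5 (ENSG00000150753) on chromosome 5. Their principal transcripts have 11 to 16 exons and similar coding lengths of 1593 to 1668 bases.

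Promoters of 3 subunit genes are shown because TCP1 and CCT2 had the largest falls and CCT8 the largest rise at 48 h. The sequences are from RefSeq on GRCh38.p14 and run 5′ to 3′ on the gene's strand, from 250 bases before to 50 bases after the start. Capitals mark the ETS core CGGAAG, bound by ETS family factors, and the CCAAT box CCAAT, bound by NF-Y, each on either strand (CTTCCG and ATTGG on the other strand). TCP1 lies at chr6:159789553-159789852 on the minus strand, the first CCT2 start at chr12:69585209-69585508 on the plus strand, and CCT8 at chr21:29073599-29073898 on the minus strand.
TCP1: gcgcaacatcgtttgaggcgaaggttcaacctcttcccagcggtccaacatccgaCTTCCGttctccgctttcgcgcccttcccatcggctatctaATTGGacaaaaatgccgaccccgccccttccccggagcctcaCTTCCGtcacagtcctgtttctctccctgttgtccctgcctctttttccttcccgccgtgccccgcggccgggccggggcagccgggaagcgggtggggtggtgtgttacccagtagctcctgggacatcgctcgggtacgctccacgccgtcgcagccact
CCT2: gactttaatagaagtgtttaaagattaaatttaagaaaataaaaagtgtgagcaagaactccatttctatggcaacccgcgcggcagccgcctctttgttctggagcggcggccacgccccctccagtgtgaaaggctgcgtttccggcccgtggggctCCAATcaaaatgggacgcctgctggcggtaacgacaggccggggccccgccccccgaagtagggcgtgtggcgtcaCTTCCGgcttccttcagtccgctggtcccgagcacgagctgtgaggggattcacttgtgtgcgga
CCT8: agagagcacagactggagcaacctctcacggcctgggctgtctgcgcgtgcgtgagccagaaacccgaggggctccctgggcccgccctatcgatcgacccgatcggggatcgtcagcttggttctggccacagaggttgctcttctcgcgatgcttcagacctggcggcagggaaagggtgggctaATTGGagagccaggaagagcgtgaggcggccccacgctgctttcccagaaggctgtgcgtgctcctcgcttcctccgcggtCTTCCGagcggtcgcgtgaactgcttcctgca
All 3 held at least 1 ETS core and 1 CCAAT box, and TCP1 held 2 ETS cores. RefSeq promoters were matched for 7 of the 8 genes, all but CCT6A. The ETS core was found for 5 of them (TCP1, CCT2, CCT5, CCT7 and CCT8), against 19.5% of 35116 promoters of the same length. The CCAAT box was found for 4 (TCP1, CCT2, CCT3 and CCT8), against 34.6%, and the GC box GGGCGG for 5, against 45%. A pair of heat shock units (GAANNTTC or TTCNNGAA), the binding letters of heat shock factors, was found for TCP1, CCT4 and a second CCT2 start, against 13.5%. These counts are per gene, with a match at any of its starts, whereas the percentages are per promoter. Per promoter, the ETS core was in 6 of the 9 matched, the CCAAT box in 4, the GC box in 6 and the heat shock pair in 3. None of the 7 matched genes held the E-box CACGTG, the CRE TGACGTCA or the ATF4 element TGATGNAA, which 7.26%, 1.85% and 3.62% of promoters held. With shares this low, 9 promoters are too few to tell this from the background. A match describes letters in the window and is no measured binding site.

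At 8 and 24 h all 8 subunit genes had lower means than untreated cells, by amounts that already differed among them. By 48 h TCP1 and CCT2 were still far below untreated cells, whereas CCT8 and CCT6A had passed above them. The sum over the 8 genes was 215803 ± 5876 normalized counts in untreated cells, 171168 ± 14191 by 8 h, 141921 ± 7125 by 24 h and 190117 ± 21104 by 48 h (SD, n = 3). This was 79.3% of the untreated sum at 8 h, 65.8% at 24 h and 88.1% at 48 h. A factor applied to a whole library leaves the share of the 8 genes in all its counts unchanged, but this share amounts to scaling to equal totals. It was 0.479 to 0.561% at 48 h, below the 0.666 to 0.698% of untreated libraries. That 48 h share lay close to the 0.4995 to 0.531% seen at 24 h. The return of the sum between 24 and 48 h therefore depended on the scaling. With equal totals the sum stood at 74.7% of untreated cells at 24 h and 76.9% at 48 h. With quantile normalization it stood at 80.4% and 76.0%, and with median centring at 59.8% and 91.9%.

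**Figure D1:**
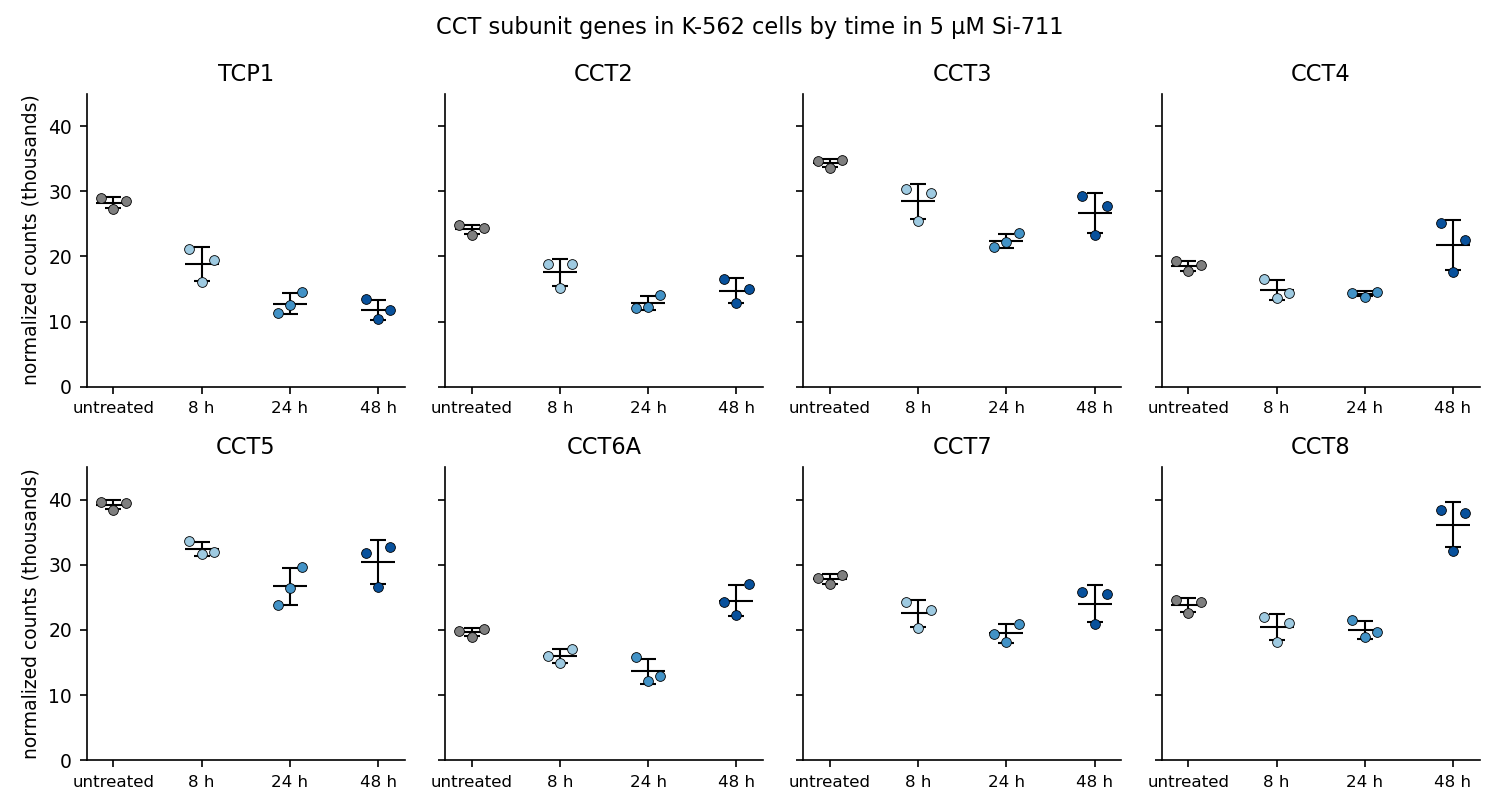
Normalized counts (in units of 1000, linear axis from 0) of the 8 CCT genes in each library, by time in 5 µM Si-711; points are libraries, the long bar is the mean and the short bars the SD (n = 3). TCP1 and CCT2 stayed low at 48 h, while all 3 CCT8 points at 48 h lie above all its other points.

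Each gene was tested with limma across all 15424 genes that reached 10 normalized counts in 3 or more libraries, with p-values adjusted over those genes and a call at an adjusted p under 0.05. Fold changes are on the log2(normalized count + 1) scale. The 3 untreated libraries serve every comparison with untreated cells. At 8 h 7 of the 8 subunit genes were called lower and none higher, while 28.2% of all genes tested were called, 15.2% as lower. At 24 h 8 of 8 were called lower, against 24.7% of all genes called lower and 47.6% called in either direction. At 48 h 4 were called lower and 2 higher, against 33.8% and 32.3% of all genes, and 6 of 8 called in either direction is close to the 66.2% of all genes. The median change of the 8 genes was -0.30, -0.55 and -0.29 at 8, 24 and 48 h, against -0.01, 0.02 and -0.05 over all genes tested. All 8 passed limma's F-test over the 3 times (adjusted p 2.22e-06 to 0.00211), as did 75.3% of all genes.

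The calls at 8 h were the least firm. The count fell to 2, TCP1 and CCT2, when untreated replicate 1, 2 or 3 or 8 h replicate 2 or 3 was left out, and to 4 without 24 h replicate 2, which shares the spread estimate. With libraries scaled to equal totals 2 were called at 8 h, and CCT3 turned to 0.02 with quantile normalization. Replicate 2 was the lowest of its group for 8 of 8 subunit genes in untreated cells, at 8 h and at 48 h, and for 4 of 8 at 24 h.

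TCP1, the subunit after which the complex was first named, fell the most. It had 28929, 27301 and 28523 normalized counts in untreated cells, 21131, 15990 and 19516 after 8 h, 11240, 12543 and 14511 after 24 h and 13409, 10327 and 11727 after 48 h. Every treated library lay below every untreated one at each time. The log2 fold change was -0.59 ± 0.12 at 8 h, -1.15 ± 0.12 at 24 h and -1.26 ± 0.12 at 48 h (standard error), with limma adjusted p of 0.00323, 8.04e-06 and 7.94e-07. At 48 h this is a level 2.4-fold lower than in untreated cells. TCP1 was called lower at all 3 times under each of the 23 other settings tried. It fell further between 8 and 24 h (-0.56, limma adjusted p = 0.00801), when 9.83% of all genes were called lower, but its change of -0.11 between 24 and 48 h did not pass the test (limma adjusted p = 0.468). Over this later interval it was called lower with equal totals (-0.49) and with quantile normalization (-0.48), and changed by 0.08 with median centring.

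CCT2, which stands 2 places from TCP1 in the ring, followed a similar course with a small return. Its values were 24767, 23354 and 24342 normalized counts in untreated cells, 18759, 15203 and 18802 after 8 h, 12046, 12280 and 14058 after 24 h and 16475, 12789 and 15012 after 48 h. No treated library reached the untreated range. Its log2 fold change was -0.46 at 8 h, -0.92 at 24 h and -0.72 at 48 h (standard error 0.11 each), with limma adjusted p of 0.00617, 1.72e-05 and 4.72e-05. Between 8 and 24 h it fell by 0.46 on the log2 scale (limma adjusted p = 0.0119). The later change of 0.20 between 24 and 48 h did not pass the test (limma adjusted p = 0.13).

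CCT3 and CCT5 had smaller changes than TCP1 and CCT2 at each time, and their means were lowest at 24 h. CCT3 ranged over 33620 to 34837 normalized counts in untreated cells, 25393 to 30302 after 8 h, 21384 to 23564 after 24 h and 23302 to 29231 after 48 h. CCT5, mutated in a hereditary sensory neuropathy, ranged over 38373 to 39615 in untreated cells, 31655 to 33582 after 8 h, 23878 to 29684 after 24 h and 26571 to 32748 after 48 h. Both genes were below the untreated range in every treated library. CCT3 changed by -0.28, -0.62 and -0.37 (standard error 0.09) and CCT5 by -0.27, -0.56 and -0.37 (standard error 0.09) on the log2 scale. The limma adjusted p was 0.0423, 0.00013 and 0.00332 for CCT3, and 0.0432, 0.000291 and 0.00316 for CCT5. The falls at 24 and 48 h were called for both genes under all 23 other settings.

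At 48 h CCT7, the neighbour of both CCT5 and CCT8 in the ring, lay in its fold change between CCT3 or CCT5 and the genes that rose. It had 27991, 26976 and 28402 normalized counts in untreated cells, 24248, 20302 and 23003 after 8 h, 19382, 18070 and 20971 after 24 h and 25748, 20846 and 25530 after 48 h. The treated libraries stayed below the untreated ones at each time. CCT7 fell at 8 h (-0.31, limma adjusted p = 0.0297) and at 24 h (-0.52, limma adjusted p = 0.000655). At 48 h the change was -0.22, with a 95% interval of -0.42 to -0.01, and missed the threshold after adjustment (limma adjusted p = 0.063). It passed with equal totals (-0.41), with quantile normalization (-0.37), and without 8 h replicate 2 (-0.22) or 48 h replicate 1 (-0.27). It also passed with the replicate number as a block.

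CCT8 was the subunit gene that rose most. It had 24531, 22657 and 24307 normalized counts in untreated cells, 22007, 18211 and 21035 after 8 h, 21521, 18834 and 19599 after 24 h and 38393, 32163 and 37863 after 48 h. The 48 h libraries lay above all 9 others, while the 8 and 24 h libraries lay below the untreated ones. The early change of -0.23 at 8 h was not called (limma adjusted p = 0.086, 95% interval -0.43 to -0.03). At 24 h it was -0.26 (limma adjusted p = 0.0367), a call that 15 of 23 other settings kept and that quantile normalization turned to 0.11. At 48 h CCT8 was 1.51-fold higher than in untreated cells (log2 fold change 0.60 ± 0.09, limma adjusted p = 7.2e-05). That rise was called under all 23 other settings, with values of 0.32 to 0.68.

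CCT6A, which stands beside CCT8 in the ring, fell and then rose past its untreated level. Its values were 19890, 18956 and 20143 normalized counts in untreated cells, 16050, 14910 and 17087 after 8 h, 15802, 12136 and 12950 after 24 h and 24213, 22206 and 27029 after 48 h. All 48 h values were above, and all earlier treated values below, the untreated range. The log2 fold change was -0.30 at 8 h, -0.54 at 24 h and 0.31 at 48 h (standard error 0.10), with limma adjusted p of 0.0434, 0.000724 and 0.0151. The 24 h call was lost with quantile normalization (-0.22). The 48 h call was lost with equal totals (0.12) and with quantile normalization (0.20), and also without untreated replicate 2 (0.29) or 48 h replicate 3 (0.24), all with the same sign.

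CCT4, a subunit that contacts actin during folding, had 19345, 17805 and 18600 normalized counts in untreated cells, 16579, 13642 and 14429 after 8 h, 14331, 13809 and 14581 after 24 h and 25105, 17675 and 22476 after 48 h. The 8 and 24 h values were below the untreated range, and the 48 h values spread across it, with replicate 2 below. CCT4 fell by 0.32 at 8 h (limma adjusted p = 0.0454) and by 0.38 at 24 h (limma adjusted p = 0.0123) on the log2 scale. The 24 h call was lost with equal totals (-0.20), with quantile normalization (-0.06) and at a threshold of 0.01. At 48 h the change was 0.21, with a 95% interval of -0.03 to 0.45 (limma adjusted p = 0.11). Without 48 h replicate 2 it was 0.35 and passed the test, and it also passed with the replicate number as a block.

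**Figure D2:**
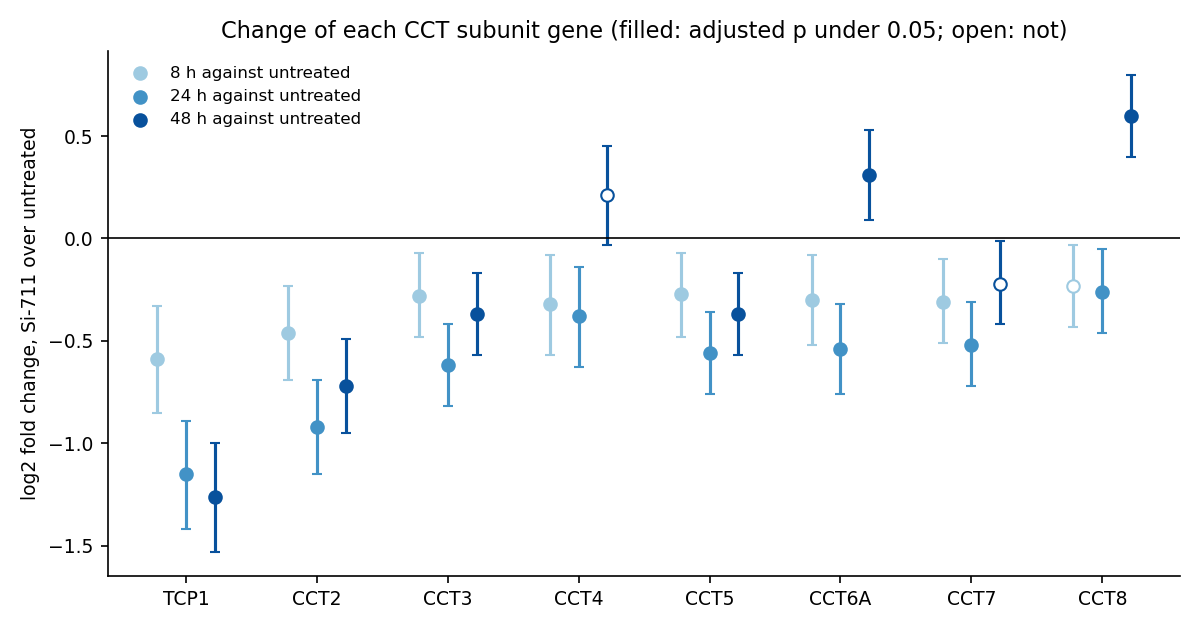
Log2 fold change of each CCT gene at 8, 24 and 48 h of Si-711 over untreated cells, with the 95% interval from limma; filled points passed an adjusted p under 0.05 and open points did not. The 48 h points run from -1.26 for TCP1 to 0.60 for CCT8, whereas the 24 h points all lie below 0.

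Tested directly, the change between 24 and 48 h was upward for 5 of the 8 genes and downward for none, while 52.2% of all genes were called, 25.1% as higher and 27.1% as lower. The split depended on the scaling, with 2 higher and 1 lower under equal totals, and 2 higher and 3 lower under quantile normalization. Median centring gave 7 higher and 0 lower. The split over all genes also moved, with 1829 called higher and 6607 lower under equal totals. It was 3756 and 3795 under quantile normalization and 5174 and 3239 under median centring, against 3874 and 4184 without rescaling. CCT8 rose by 0.85 (limma adjusted p = 6.47e-06), CCT6A by 0.85 (limma adjusted p = 1.4e-05) and CCT4 by 0.60 (limma adjusted p = 0.000561) on the log2 scale. CCT7 rose by 0.30 and CCT3 by 0.25 (limma adjusted p = 0.0182 and 0.0368), but their libraries overlapped between the 2 times, and with equal totals they changed by -0.08 and -0.13 instead. CCT8 and CCT6A rose over this interval under every other setting. The count was 3 (CCT8, CCT6A and CCT4) without 24 h replicate 2 or without 48 h replicate 1 or 3. Between 8 and 24 h, 3 genes were called lower (TCP1, CCT2 and CCT3) and none higher, against 9.83% lower, 8.31% higher and 18.1% in either direction over all genes, and CCT5 sat at the threshold (-0.29, limma adjusted p = 0.05). That count was 1 without 8 h replicate 1 or without 8 h replicate 3.

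Because each ring takes 1 copy of each subunit, the balance among the 8 transcripts is shown as shares of their sum, which no scaling of whole libraries alters. TCP1 held 13.09 ± 0.07% of the CCT counts in untreated cells, 10.99 ± 0.65% after 8 h, 8.98 ± 0.84% after 24 h and 6.22 ± 0.35% after 48 h (SD, n = 3). CCT2 held 11.19 ± 0.07%, 10.26 ± 0.46%, 9.01 ± 0.37% and 7.76 ± 0.28% over the same times. Both shares declined at each step, with no overlap between untreated and treated libraries.

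CCT8 took the opposite course, with 11.04 ± 0.18% in untreated cells, 11.92 ± 0.17% after 8 h, 14.1 ± 1.2% after 24 h and 19.03 ± 0.32% after 48 h. CCT4 held 11.39 ± 0.82% at 48 h, against 8.61 ± 0.17% in untreated cells, and CCT6A held 12.91 ± 0.93% at 48 h, against 9.11 ± 0.09% in untreated cells. CCT7 stayed within 12.57 to 13.99% in all 12 libraries. The ratio of TCP1 to CCT8 counts was 1.179, 1.205 and 1.173 in untreated cells, 0.96, 0.878 and 0.928 after 8 h, 0.522, 0.666 and 0.74 after 24 h and 0.349, 0.321 and 0.31 after 48 h. The 4 groups did not overlap in this ratio, and no p is given for it because the pair was chosen for its contrast.

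**Figure D3:**
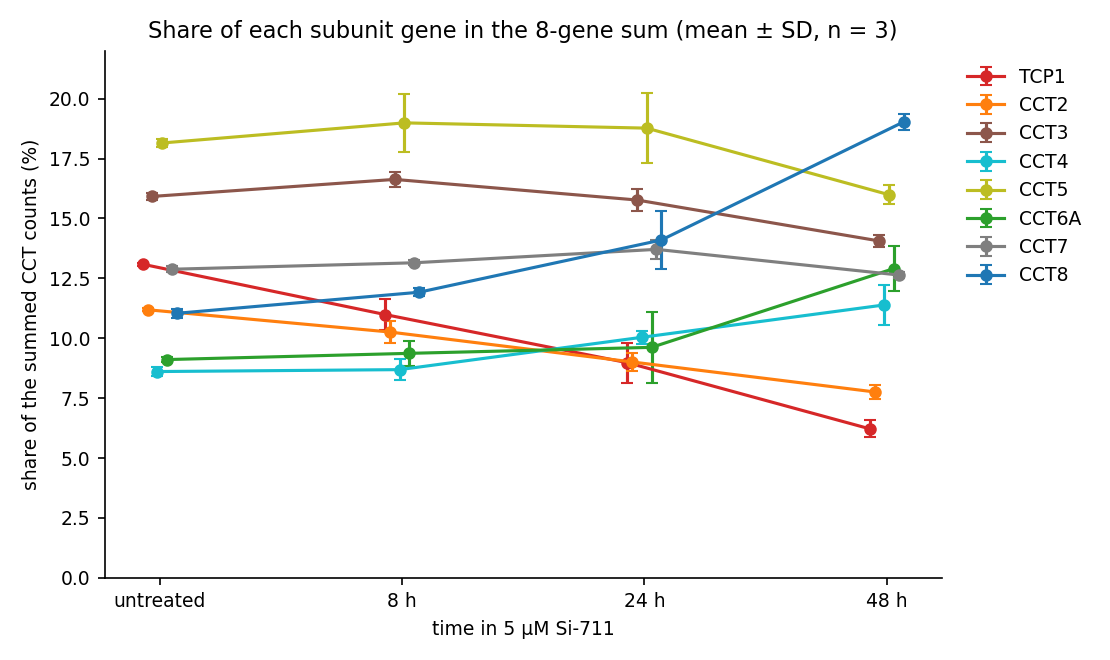
Share of each subunit gene in the summed normalized counts of the 8 CCT genes (%, axis from 0), as mean ± SD of 3 libraries, by time in 5 µM Si-711 (times evenly spaced on the axis). CCT8 moved up to 19.03% at 48 h and TCP1 down to 6.22%, while CCT7 kept nearly the same share.

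The order of the subunit levels was read per kilobase of the principal transcript. At 48 h CCT8 led with 18025 ± 1723 normalized counts per kilobase, ahead of CCT7 (12548 ± 1445) and CCT3 (12433 ± 1429), which did not differ beyond their SD. CCT6A (9004 ± 891), CCT4 (8632 ± 1495) and CCT5 (8269 ± 908) followed within 1 SD of their neighbours, then CCT2 (7231 ± 909), and TCP1 was last with 4730 ± 618. In untreated cells the order was led by CCT3 with 15981 ± 302 normalized counts per kilobase, then CCT7 with 14504 ± 383, CCT8 with 11886 ± 510, CCT2 with 11834 ± 355, TCP1 with 11305 ± 339 and CCT5 with 10659 ± 188. CCT4 (7374 ± 306) and CCT6A (7232 ± 230) came last there, and neither this pair nor CCT8 and CCT2 differed beyond their SD. The highest gene stood 3.81-fold above the lowest at 48 h, against 2.21-fold in untreated cells. Per kilobase of coding sequence the spread was 3.1-fold at 48 h, against 2.1-fold in untreated cells, where CCT5 led because its transcript of 3675 bases is long for a coding length of 1623. The sources used here do not give the transcript lengths behind the authors' counting.

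Over the 12 libraries the log2 values of the genes fell into 2 sets. TCP1, CCT2, CCT3 and CCT5 correlated with each other at Pearson's r of 0.877 to 0.976 (6 pairs), and CCT4, CCT6A and CCT8 at 0.886 to 0.915 (3 pairs). Between these sets r ran from -0.283 to 0.508 (12 pairs), and CCT7 correlated with the others at 0.45 to 0.939. These values describe 12 libraries that share 4 groups and the same scaling, so they carry no p.

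The genes closest to the mean of the 8 were chosen by the same correlation among 11631 genes. NME1, a nucleoside diphosphate kinase, had r of 0.981, the proteasome lid peptidase PSMD14 0.98 and the replication checkpoint gene CLSPN 0.98. MAGOH of the exon junction complex (0.976), the chromatin protein HMGB1 (0.975) and STRAP of the SMN complex (0.975) followed. PSMD14, for example, averaged 7837 normalized counts in untreated cells, 5833 after 8 h, 4747 after 24 h and 6361 after 48 h. At the opposite end stood the nuclear receptor PPARD (-0.967), the NKG2D ligand ULBP1 (-0.967) and the G-protein modulator GPSM1 (-0.96). ULBP1 averaged 38 normalized counts in untreated cells, 146 after 8 h, 267 after 24 h and 90 after 48 h.

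Subunit genes have processed and unprocessed copies with which reads can be shared. Of 15 such copies and relatives in the table, 5 reached a value of 10 in a library. CCT6P3, a transcribed copy of CCT6A, had 503, 496 and 424 normalized counts in untreated cells, 545, 542 and 477 after 8 h, 800, 620 and 506 after 24 h and 2396, 2176 and 1917 after 48 h. It was higher in each 48 h library than in any other and rose 4.55-fold over untreated cells (log2 fold change 2.19, limma adjusted p = 5.63e-08). CCT6P1 rose at 48 h by 0.59 on the log2 scale (limma adjusted p = 0.00253). The 31-base words of CCT6P1 and CCT6P3 were shared with CCT6A at 12.1% and 9.2%. Together the copies amounted to 8.52 to 11.6% of the CCT6A counts at 48 h, against 3.48 to 3.98% in untreated cells. With both copies added to CCT6A its 48 h change was 0.40 (limma adjusted p = 0.00236), an alternative chosen after the data were seen. CCT6B, the testis form, averaged 54.7 normalized counts at 48 h, against 29.7 in untreated cells, a call (limma adjusted p = 0.0399) with overlapping libraries that was lost with equal totals.

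Some subunit genes also overlap a gene on the other strand. The library was strand-specific per the labels, but the sources used here do not give the strand setting of the counting. ACAT2, an acetyl-CoA acetyltransferase of the sterol pathway, overlaps TCP1 by 558 bases. It fell at 8 h and was higher at 48 h, with means of 4394.6 normalized counts in untreated cells and 3040.2, 5966.1 and 8490.3 at 8, 24 and 48 h (48 h log2 fold change 0.95, limma adjusted p = 1.64e-05). COMMD1 overlaps CCT4 by 81 bases and rose by 0.86 on the log2 scale at 48 h (limma adjusted p = 3.66e-05). TSACC overlaps CCT3 by 9682 bases but reached at most 62.7 normalized counts in a library. MRPL18, the neighbour that starts next to TCP1 in the opposite direction, fell at 8 h (-0.29) and 24 h (-0.40) and at 48 h changed by 0.11 (limma adjusted p = 0.288), unlike TCP1. PSPH, beside CCT6A on the other strand, was higher at 8, 24 and 48 h (0.54, 0.94 and 0.32, limma adjusted p = 0.00184, 9.03e-06 and 0.0123). PRADC1, beside CCT7 on the other strand, was lower at 24 h (-0.39) and 48 h (-1.29), with limma adjusted p of 0.0139 and 4.3e-07. The part of shared reads in the CCT values was not tested.

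The counts for partner, substrate and chaperone lists that follow are read against all genes tested, of which 15.2% were called lower and 13% higher at 8 h, 24.7% and 22.9% at 24 h, and 33.8% and 32.3% at 48 h. Prefoldin is the complex of 6 subunits that delivers nascent actin and tubulin to CCT. Of its 6 genes 1 was called lower and none higher at 8 h, 3 lower and 1 higher at 24 h, and none lower and 4 higher at 48 h, with a median of 0.96 at 48 h against -0.05 over all genes. The 4 of 6 called at 48 h are close to the 66.2% of all genes called in either direction. PFDN5 had 16180, 16528 and 16115 normalized counts at 48 h, against 5298, 5300 and 5319 in untreated cells. These groups were far apart (log2 fold change 1.62, limma adjusted p = 4.17e-09). PFDN4 (1.45), PFDN2 (1.39) and PFDN1 (0.53) also rose at 48 h, with limma adjusted p of 7.04e-07, 7.84e-07 and 0.000148, and these 4 calls held under equal totals, median centring and quantile normalization. PFDN6 changed by -0.08 and VBP1 by -0.05, neither called (limma adjusted p = 0.614 and 0.64). VBP1, the prefoldin subunit that binds the VHL protein, had fallen at 24 h (-0.48, limma adjusted p = 0.000752).

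Of the 3 phosducin-like co-chaperones, which bind CCT and modulate its folding cycle, 1 was called lower at 8 h, 2 at 24 h and 2 at 48 h. TXNDC9 had 1390, 1392 and 1431 normalized counts in untreated cells, 1052, 905 and 1049 after 8 h, 950, 860 and 904 after 24 h and 977, 945 and 924 after 48 h. It was below the untreated range throughout (-0.49, -0.63 and -0.57, limma adjusted p = 0.0018, 9.15e-05 and 0.0001). PDCL3 was called at 24 h (-0.66) and 48 h (-0.46), and PDCL at no time (0.18 at 48 h). Of 6 tested genes of R2TP and its prefoldin-like module, an assembly partner of CCT, 3 were lower at 8 h, 5 at 24 h and 3 at 48 h, when UXT was higher and the 4 of 6 called were close to the 66.2% of all genes. URI1 fell by 1.07 and PDRG1 by 1.02 on the log2 scale at 48 h, and UXT rose by 0.82 (limma adjusted p = 2.42e-08, 4.82e-07 and 4.25e-06). With equal totals none of them was called at 8 h and 3 were lower at 24 h. RUVBL2 was lower at 24 h (-0.34) and 48 h (-0.49), RPAP3 at 8 h (-0.41) and 24 h (-0.52) and PIH1D1 at 24 h (-0.22), and the last of these turned to 0.03 with quantile normalization. RUVBL1 of this list was listed at 0 in all 12 libraries and was not tested.

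**Figure D4:**
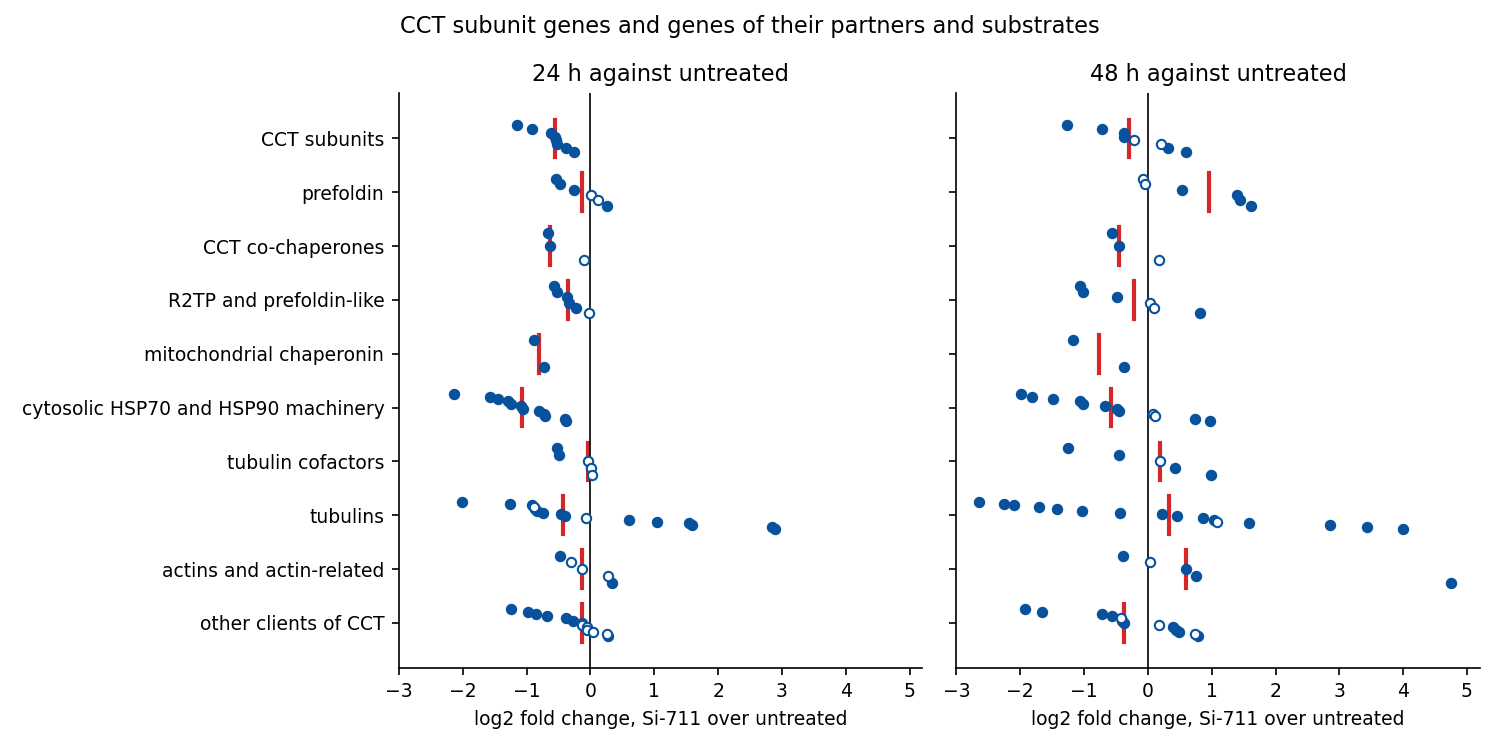
Log2 fold change of each tested gene in the CCT list and in lists of partners, substrates and other chaperones, at 24 h (left) and 48 h (right) of Si-711 over untreated cells; filled points passed limma's adjusted p under 0.05, and red bars are list medians. The CCT median was -0.55 at 24 h and -0.29 at 48 h, and the prefoldin median was -0.12 and 0.96.

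Actin and tubulin are the best known substrates of CCT. Of 5 actin and actin-related genes, 2 were higher and 2 lower at 8 h, 1 and 1 at 24 h, and 3 higher and 1 lower at 48 h, while 28.2%, 47.6% and 66.2% of all genes were called in either direction. With equal totals none was lower at 8 h. ACTB had 1341, 1537 and 1233 normalized counts in untreated cells, 908, 779 and 1163 after 8 h, 1338, 864 and 1182 after 24 h and 35226, 34771 and 40819 after 48 h. The 48 h libraries stood far above the other 9 (log2 fold change 4.75, limma adjusted p = 7.72e-10). ACTB and ACTG1 are near-identical, so reads may have been divided between them uncertainly. Their sum was 24984 ± 5133 normalized counts in untreated cells, 35161 ± 2718 after 8 h, 29624 ± 4152 after 24 h and 76705 ± 7092 after 48 h (SD, n = 3). The Arp2/3 subunit ACTR2 rose at 48 h (0.60) and the dynactin subunit ACTR1A fell (-0.39), with limma adjusted p of 4.08e-05 and 0.00227, and ACTR3 was called at no time.

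Among 16 tubulin genes, 4 were higher and 5 lower at 8 h, 6 and 8 at 24 h, and 8 and 7 at 48 h, so that 9, 14 and 15 of 16 were called against 28.2%, 47.6% and 66.2% of all genes. The tubulin genes with the highest untreated means, TUBA1B, TUBB and TUBA1C, had lower means at 48 h. These were 43702, 33446 and 10893 normalized counts, against 89136, 44748 and 35729 in untreated cells. TUBB4B, a broadly expressed beta-tubulin, had 3700, 3906 and 4217 normalized counts at 48 h, against 18604, 19149 and 18945 in untreated cells. It was also lower at 24 h (-1.26), and its log2 fold change at 48 h was -2.26 (limma adjusted p = 2.3e-10). TUBB2B, a beta-tubulin prominent in neurons, averaged 2452 normalized counts at 48 h, against 152 in untreated cells (log2 fold change 3.99, limma adjusted p = 6e-09). TUBB4A (3.43) and the gamma-tubulin TUBG2 (2.86) rose and the delta-tubulin TUBD1 (-2.64) fell at 48 h (limma adjusted p = 4.58e-06, 1.68e-07 and 1.38e-06). Tubulin genes are similar in sequence, so their values may trade reads. Of 5 tested tubulin cofactors, which fold and pair tubulin after CCT, TBCA (0.99) and TBCB (0.42) rose and TBCD (-1.25) and TBCC (-0.46) fell at 48 h. The limma adjusted p was 1.94e-07 for TBCA, 0.00242 for TBCB, 6.11e-05 for TBCD and 0.00143 for TBCC, and the TBCB call was lost with equal totals. ARL2, the GTPase of this group, was called at no time. At 8 h 1 of the 5 was called lower, and at 24 h 2.

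Of 13 other proteins known to need CCT, 1 gene was lower at 8 h, 6 were lower and 1 higher at 24 h, and 6 were lower and 4 higher at 48 h, shares not far from the 47.6% and 66.2% of all genes called at 24 and 48 h. Cyclin E1 (CCNE1) averaged 564 ± 113 normalized counts at 48 h, against 2108 ± 112 in untreated cells, and fell by 1.92 on the log2 scale (limma adjusted p = 8.79e-08). The mitotic kinase PLK1 averaged 2747 ± 280 at 48 h, against 8673 ± 820 in untreated cells, and fell by 1.66 (limma adjusted p = 4.8e-08). CDC20, an activator of the anaphase-promoting complex, fell by 0.98 at 24 h and by 0.41 at 48 h, whereas FZR1, the other activator, rose by 0.78 at 48 h (limma adjusted p = 2.39e-06, 0.00079 and 6.91e-05). With equal totals 2 of the 13 were higher and none lower at 8 h, and 3 were higher and 4 lower at 24 h. The G-protein beta subunit GNB1 fell by 0.72 at 48 h (limma adjusted p = 0.000202).

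Other chaperone systems also declined early. The mitochondrial chaperonin pair was lower at all 3 times, with HSPD1 at -0.43, -0.72 and -0.37 and its lid HSPE1 at -0.49, -0.89 and -1.17 on the log2 scale. The limma adjusted p was 0.0379, 0.00101 and 0.0349 for HSPD1 and 0.00277, 1.27e-05 and 2.37e-07 for HSPE1, and the HSPD1 call was lost at 8 h with equal totals or quantile normalization and at 48 h with median centring. Of 12 genes of the cytosolic HSP70 and HSP90 machinery, 10 were lower at 8 h, 12 at 24 h, and 8 lower and 2 higher at 48 h, with medians of -0.53, -1.07 and -0.57 against -0.01, 0.02 and -0.05 over all genes. The shares of all genes called lower were 15.2%, 24.7% and 33.8%. HSPA8, the constitutive HSP70, had 129831, 121651 and 123231 normalized counts in untreated cells, 67327, 57834 and 63636 after 8 h, 19700, 32055 and 35738 after 24 h and 40602, 31472 and 35072 after 48 h. Its level was below the untreated range throughout (-0.99, -2.14 and -1.81, limma adjusted p = 0.00119, 1.57e-06 and 7.44e-07). The HSP40 gene DNAJA1 (-1.99), the co-chaperone STIP1 (-1.48) and the HSP90 activator AHSA1 (-1.06) also fell at 48 h, with limma adjusted p of 1.99e-08, 5.97e-08 and 2.24e-06.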

How the data were processed

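Per the submitters' processing notes, reads were handled with cutadapt, Salmon and DESeq2 on GRCh38. Versions and annotation release are not given in the sources used here. What the authors deposited is a signal, namely gene counts after DESeq2 normalization. Between 45.0 and 69.8% of low values lay within 0.1 of a whole multiple of a library's step, which did not recover whole reads, so no count test was run.

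Symbols came from a gene name table for 50026 of 51112 identifiers. The 15424 genes that reached 10 in 3 or more libraries were fitted on log2(value + 1) with limma 3.58.1 in R 4.3.3, in 1 fit over 12 libraries with a mean trend. Tests were two-sided, with Benjamini-Hochberg adjustment per comparison and a call under 0.05. The script was checked on simulated data.

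The members, the partner lists and the rule for named genes were chosen with earlier results of these data known. All members were named. The rule allowed every gene of lists with up to 7 tested genes, up to 4 genes with the largest called change per comparison (mean of at least 50) in longer lists, and the 6 genes with the highest and 3 with the lowest correlation. Neighbours were named by position. TUBB4B, TUBA1B, TUBB, TUBA1C, CDC20 at 48 h and the 3 printed promoters were chosen after their values were seen. Alternatives were other scalings, filters, added values, thresholds, a replicate block and leaving out each library.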

Additional observations from a re-analysis of the deposited data

Results flagged for a closer look

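Levels of subunit genes were compared between successive times of exposure in limma's direct test of the later against the earlier time. Of the 8 genes, 3 were called lower and none higher from 8 to 24 h. From 24 to 48 h 5 were called higher and none lower. Of all genes tested, 18.1% were called from 8 to 24 h, 9.83% as lower. From 24 to 48 h 52.2% of all genes were called, 25.1% as higher. From 8 to 24 h the further fall was -0.56 for TCP1, -0.46 for CCT2 and -0.34 for CCT3 on the log2 scale, with limma adjusted p of 0.00801, 0.0119 and 0.0229. From 24 to 48 h the change was 0.85 for CCT8, 0.85 for CCT6A, 0.60 for CCT4, 0.30 for CCT7 and 0.25 for CCT3, with limma adjusted p of 6.47e-06, 1.4e-05, 0.000561, 0.0182 and 0.0368. The values for CCT7 and CCT3 over the later interval were of the opposite sign with equal totals and with quantile normalization.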

How the results depend on the processing

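Of 925 values of single subunit genes under the alternatives, 787 kept their direction and side of the threshold, 94 lost the call, 27 gained it and 17 changed sign. At 8 h against untreated cells 7 subunit genes were called, and 2 with no filter, 2 with equal totals, 1 with quantile normalization and 2 at a threshold of 0.01. At 24 h 5 of 8 were called with quantile normalization. For 48 h against 24 h 3 were called with equal totals, 3 when the 2 groups alone were fitted and 3 at a threshold of 0.01. For 24 h against 8 h 1 was called at a threshold of 0.01. Over all genes that threshold called 2366 at 8 h, 1007 between 8 and 24 h and 6179 between 24 and 48 h. At 8 h 3736 of all genes were called with no filter, 3970 with equal totals and 3538 with quantile normalization. Quantile normalization called 7017 at 24 h. Between 24 and 48 h 8436 were called with equal totals and 7306 when the 2 groups alone were fitted.

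With 1 library left out in turn, 2 to 7 subunit genes were called at 8 h, 7 to 8 at 24 h, 5 to 7 at 48 h, 1 to 4 between 8 and 24 h and 3 to 7 between 24 and 48 h. Over all genes 2930 to 4662 were then called at 8 h, 6373 to 7650 at 24 h, 9438 to 10263 at 48 h, 1397 to 3144 between 8 and 24 h and 7018 to 8047 between 24 and 48 h. The lowest count between 8 and 24 h came without 8 h replicate 3, and the count was 1415 without 24 h replicate 1 and 1622 without 8 h replicate 1.

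The sum of the 8 genes as a percentage of untreated cells was 88.6, 74.7 and 76.9% at 8, 24 and 48 h with equal totals. It was 95.2, 80.4 and 76.0% with quantile normalization and 74.6, 59.8 and 91.9% with median centring. Equal totals moved the median change of all genes to 0.14, 0.20 and -0.24 at 8, 24 and 48 h, and to -0.43 between 24 and 48 h. Signs changed for CCT2 (-0.18), CCT3 (-0.13), CCT5 (-0.19) and CCT7 (-0.08) between 24 and 48 h with equal totals, and for TCP1 (0.08) with median centring. With quantile normalization they changed for CCT2 (-0.16), CCT3 (-0.27), CCT5 (-0.39) and CCT7 (-0.16) over that interval, for CCT3 (0.02), CCT5 (0.00) and CCT8 (0.08) at 8 h, for CCT8 (0.11) at 24 h and for CCT8 (0.03) between 8 and 24 h. Over that last interval, with 1 library left out in turn, CCT4 ran from -0.12 to 0.02 and CCT8 from -0.11 to 0.03, and signs changed without 8 h replicate 1 (both genes) and without 24 h replicate 2 (CCT8, 0.01). The cause was not tested.

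By their labels, samples of different groups shared a replicate number. Over all genes tested, their deviations from the group means correlated at -0.07 to 0.142, with 2 of 18 pairs over 0.1. Of 12 libraries, 1 correlated best with its own number throughout. Among the subunit genes, replicate 2 was the lowest for 8 of 8 in untreated cells, at 8 h and at 48 h, and for 4 of 8 at 24 h. The reason was not tested. With the number as a replicate block, 8 subunit genes were called at 8 h, 8 at 48 h (CCT4, at 0.21, and CCT7, at -0.22, were added) and 5 between 8 and 24 h. The normalized table does not give read depth, so counting error per gene is unknown.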

Other observations

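Among relatives of the chaperonin outside the complex, BBS12, a chaperonin-like protein of the BBSome assembly pathway, was higher at 8 h (0.73), 24 h (1.02) and 48 h (0.69) on the log2 scale (limma adjusted p = 0.00699, 0.000317 and 0.00304). MKKS, its partner, was lower at 8 h (-0.58) and 24 h (-0.41) and changed by 0.06 at 48 h (limma adjusted p = 0.0107, 0.0347 and 0.75), and both of its calls were lost with equal totals. The heat shock factor HSF2, a transcription factor of chaperone genes, rose at 48 h by 0.74 (limma adjusted p = 6.36e-05), to a mean of 2207 normalized counts against 1323 in untreated cells.

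At 48 h, 2 of the 12 genes of the HSP70 and HSP90 machinery were called higher and 8 lower, against 32.3% and 33.8% of all genes. DNAJB1, a stress-inducible HSP40, averaged 11579 ± 543 normalized counts at 48 h, against 5852 ± 140 in untreated cells (log2 fold change 0.98, limma adjusted p = 1.67e-05). HSPA4, a nucleotide exchange factor for HSP70, averaged 18120 ± 3001 at 48 h, against 10774 ± 170 in untreated cells (log2 fold change 0.74, limma adjusted p = 3.63e-05). Both genes had been lower at 24 h (-1.24 and -0.40), a call that HSPA4 lost with equal totals. HSP90AA1, the inducible HSP90, was lower at 8 h (-0.62) and 24 h (-1.29) and changed by 0.11 at 48 h (limma adjusted p = 0.333). These genes were singled out after their values were seen.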
